A study of Mus musculus with 12 samples.

Results

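Stag2, its paralogs Stag1 and Stag3, and the genes of the cohesin ring, Smc1a, Smc3, Rad21 and Rec8, were followed as a set of 7 genes chosen by symbol out of the 23337 listed in both count tables. The study took RNA from peeled urothelium, the epithelium of the urinary tract lifted off its stroma, in Stag2-WT and Stag2-KO mice. It was taken 1 week and 1 month after TMX induction, with 3 samples for each genotype and time and 12 in all. TMX, read here as tamoxifen, was in the diet of both genotypes for 1 week, so the wild-type animals had the same treatment as the knockouts, and the time is counted from the first day of the diet. The labels name neither the Cre driver nor the deleted exons, the strain, the age or the sex of the animals. The libraries read the 3′ ends of polyadenylated transcripts, so that a count stands for a transcript end and does not grow with transcript length, although priming can still differ between genes.

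Cohesin is a ring of the SMC proteins Smc1a and Smc3, closed by the kleisin Rad21, and the kleisin carries a further subunit, Stag1 or Stag2. The ring holds sister chromatids together from replication to mitosis and folds interphase chromatin into loops, for which it is also needed in resting cells such as most of the adult urothelium. Stag1 and Stag2 are taken up into alternative forms of the complex, and Stag2 is a tumour suppressor of the bladder. Rec8, a kleisin, and Stag3 belong to the meiotic forms.

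In the GRCm38 (mm10) annotation of GENCODE M21, Stag2 lies at chrX:42149317-42277185, Smc1a at chrX:152016428-152062694, Stag1 at chr9:100597798-100959375, Stag3 at chr5:138280240-138312393, Smc3 at chr19:53600398-53645833, and Rec8 at chr14:55618037-55625395, all on the plus strand, and Rad21 at chr15:51962240-51991747 on the minus strand. Stag1 has 3 annotated genes on its own strand within its span, each of the unclassified type TEC, and the other 6 have 0. Over the last 500 bases of their protein-coding transcripts, no pair of the 7 genes shared a run of 30 bases.

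Promoter windows of 300 bases were at hand for 5 of the 7 genes, from RefSeq on GRCm38.p6, each from 250 bases before to 50 after a start site. The series ties Stag2 to DREAM, a repressor complex that reaches its targets through E2F-like and CHR letters, so both were looked for on both strands: TTTNNCGC, with N for any base, and TTTGAA. The windows shown are those of Stag1, the paralog that can take the place of Stag2, and of the SMC genes Smc1a and Smc3, with any match in capitals. That of Stag1 is chr9:100643198-100643497, a start inside the annotated span, that of Smc1a is chrX:152016178-152016477 and that of Smc3 is chr19:53600146-53600445, all read on the plus strand.
Stag1: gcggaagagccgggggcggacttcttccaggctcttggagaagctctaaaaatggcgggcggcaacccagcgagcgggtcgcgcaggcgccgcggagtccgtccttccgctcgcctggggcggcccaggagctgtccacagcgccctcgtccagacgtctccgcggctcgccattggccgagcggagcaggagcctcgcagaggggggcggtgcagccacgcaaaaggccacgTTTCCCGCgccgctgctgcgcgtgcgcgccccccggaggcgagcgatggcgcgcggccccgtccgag
Smc1a: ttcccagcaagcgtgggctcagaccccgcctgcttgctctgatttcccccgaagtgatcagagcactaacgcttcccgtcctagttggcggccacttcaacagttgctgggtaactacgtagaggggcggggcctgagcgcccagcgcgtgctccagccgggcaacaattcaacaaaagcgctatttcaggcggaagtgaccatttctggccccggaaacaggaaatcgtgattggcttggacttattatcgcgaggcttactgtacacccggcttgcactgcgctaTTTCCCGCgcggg
Smc3: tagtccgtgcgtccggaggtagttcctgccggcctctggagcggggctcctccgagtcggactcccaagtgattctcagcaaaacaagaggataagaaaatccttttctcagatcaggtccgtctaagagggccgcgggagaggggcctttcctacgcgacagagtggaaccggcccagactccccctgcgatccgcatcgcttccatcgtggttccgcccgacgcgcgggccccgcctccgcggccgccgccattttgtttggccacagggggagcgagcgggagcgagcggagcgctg
TTTNNCGC stood once in the window of Stag1, beginning 17 bases before the start, and once in that of Smc1a, beginning 37 bases after it. It was in 0 of the other 3 windows (Smc3, Stag3 and Rec8) and in 5.17% of all 32851 windows of this length. TTTGAA was in 0 of the 5 windows and in 17.9% of all. A match of letters is a description and not a bound site.

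The libraries held between 5580961 and 9497088 counts and differed in ways the genotype does not name. Xist, the RNA of the inactive X chromosome, reached no more than 1.35 CPM in WT at 1 week, while the KO libraries held 1149 to 1379 CPM, so genotype and Xist cannot be told apart at that time. At 1 month Xist was at 1181 CPM in KO replicate 3 and at most 3.45 CPM in the other 5 libraries. All libraries of 1 week are batch 1, those of 1 month are batch 2 except replicate 3 of each genotype, which is batch 3, and levels are therefore not compared between times. In batch 3 genotype and Xist cannot be told apart either, as its WT library had 1.68 CPM of Xist. Values of 1 month that include batch 3, and values over all 12 libraries, carry this limit. Each of 15 urothelial markers exceeded 3 counts in at least 1 library of every group. Their summed level was 12282 to 14978 CPM (WT) against 10318 to 14166 (KO) at 1 week, and 15981 to 29219 against 11648 to 16675 at 1 month. Markers of other cells were also present, and at 1 week their sums were higher in KO, with overlap for fibroblasts and without it for the rest. The 8 fibroblast markers summed to 3599 to 5845 CPM (WT) against 5319 to 10517 (KO), the 5 of smooth muscle to 109 to 274 against 348 to 1049, and the 4 of endothelium to 141 to 156 against 231 to 441. The 8 of leukocytes summed to 162 to 277 CPM against 323 to 644, with Cd79a at 3 or fewer counts in both genotypes, and the 8 of dividing cells to 16.9 to 18.6 against 106 to 707, with Cdk1 and Bub1 at 3 or fewer in WT. At 1 month the corresponding ranges were 9967 to 13806 CPM against 7857 to 9585 for fibroblasts, 87.0 to 918 against 142 to 409 for smooth muscle, and 91.9 to 136 against 149.7 to 283 for endothelium. They were 690 to 1395 CPM against 348 to 430 for leukocytes and 14.8 to 57.8 against 14.2 to 22.2 for dividing cells. The sums do not show the direction of single markers. Of the 15 urothelial markers at 1 month, 5 were higher and 10 lower in KO, and edgeR called 1, lower. Of 6 leukocyte markers tested, 6 were lower and 4 were called, and of 8 fibroblast markers 1 was called, higher. EdgeR called 0 in the other lists, and 2.22% of all genes. The part of these cells in the results was not tested.

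Stag2, the targeted gene, was lower in every KO library than in every WT library of its time. At 1 week it stood at 120.3, 108 and 154 CPM (counts scaled to a common library size, with TMM factors) in the WT libraries and at 76.2, 61.1 and 69.3 CPM in the KO libraries. At 1 month the WT libraries had 59.2, 61.9 and 46.4 CPM and the KO libraries 38.0, 36.4 and 19.3 CPM. The lowest library in each genotype at 1 month was the batch 3 library, and the groups did not overlap at either time. KO was lower without overlap for 12.5% of genes at 1 week and 7.58% at 1 month, and at both times for 160 of 13122 genes, or 1.22%.

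The group means were 127.6 ± 23.9 CPM (SD, n = 3) for WT, against 68.9 ± 7.57 for KO, at 1 week, and 55.8 ± 8.32 and 31.2 ± 10.3 at 1 month. In edgeR's quasi-likelihood test across all genes the log2 fold change was -0.89 (95% interval -1.52 to -0.26, adjusted p = 0.198) at 1 week and -0.88 (-1.35 to -0.42, adjusted p = 0.0507) at 1 month, so neither time passed the threshold of 0.05 on its own. DESeq2 called Stag2 at both (adjusted p = 0.0355 and 0.0145), as it did 7.52% of 12726 genes at 1 week and 6.98% of 11197 at 1 month. With 1 genotype effect fitted to all 12 libraries and batch as a covariate, Stag2 fell to 0.534-fold of WT (log2 fold change -0.91, SE 0.16, 95% interval -1.26 to -0.55, edgeR adjusted p = 0.0408). This fit called 51 of 13122 genes, 0.389%, of which 40, or 0.305%, were lower in KO, and Stag2 was the 39th by p-value. It was the 1 gene called among the 6 members tested, and it rests on the same libraries as the fits of each time. The call was lost in 11 of the 12 fits that left out 1 library, with adjusted p of up to 0.158 and a log2 fold change between -0.95 and -0.84. Leaving out KO replicate 3 of 1 week kept it, at an adjusted p of 0.014. In a test of the difference between times the effect at 1 month differed from that at 1 week by 0.02 (95% interval -0.71 to 0.75, edgeR adjusted p = 0.982). In simulated counts this test recovered 0 of 200 genes changed 4-fold, so its adjusted p does not show that the effects were equal.

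Stag2 was still counted in every KO library, with 339 to 564 counts at 1 week and 127 to 308 at 1 month. The deleted part of the gene is not named, and 3′ reads also count a transcript that lacks an inner exon, so these counts do not measure how much intact Stag2 remained. In bulk tissue, fewer cells with the transcript and less transcript per cell cannot be told apart either. Within batch 2 the log2 difference of mean log2 CPM at 1 month was -0.70, and between the single libraries of batch 3 it was -1.24.

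**Figure D1:**
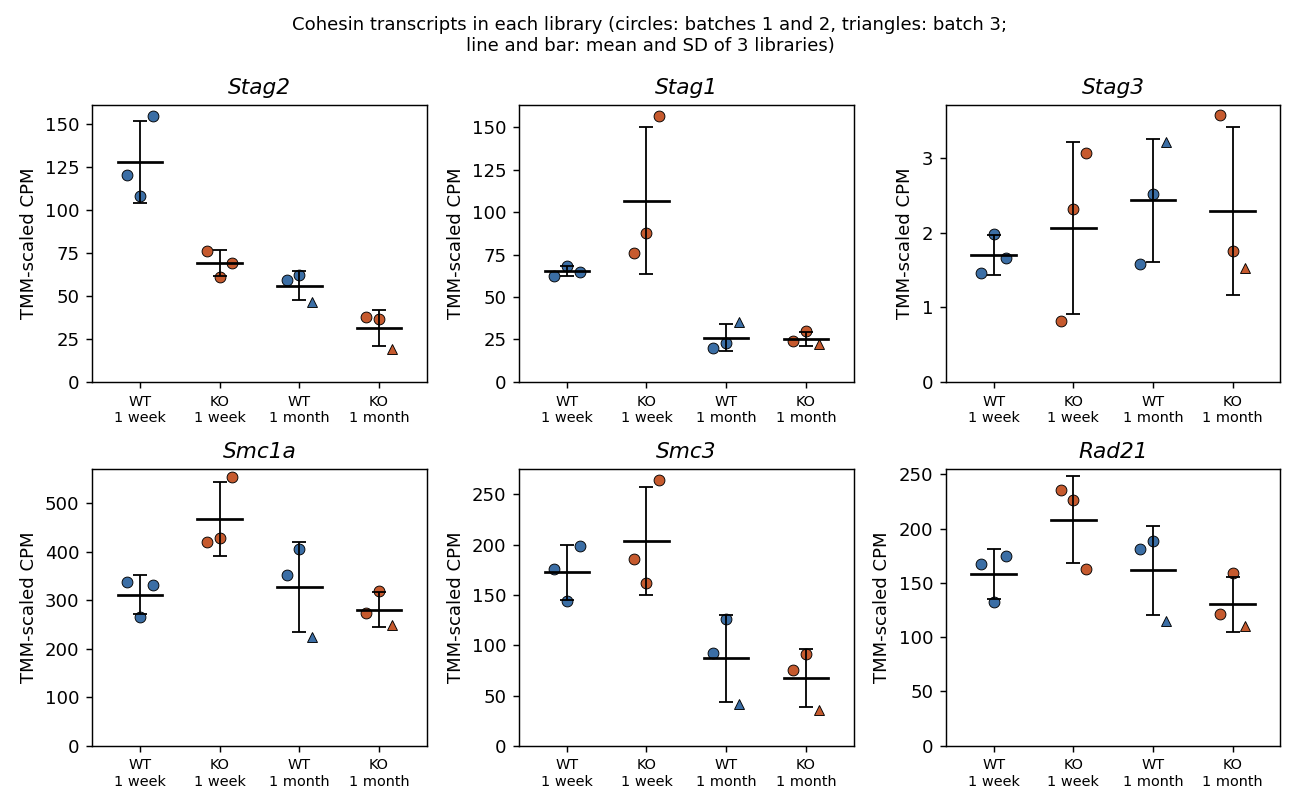
TMM-scaled CPM (y axis, from 0) of 6 members in each library of the 4 groups (x axis), with circles for batches 1 and 2, triangles for batch 3, and lines and bars for the mean and SD of 3 libraries. Stag2 lies lower in KO than in WT without overlap at both times, and Smc3 is lowest at 1 month in the batch 3 libraries of both genotypes.

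Stag1, the paralog that can occupy the same place on the ring, had 62.5, 68.5 and 64.9 CPM in WT and 75.9, 88.0 and 156 CPM in KO at 1 week. The groups did not overlap, as for 14.1% of the genes tested with KO higher, and KO replicate 3 was far above the other KO libraries. The log2 fold change was 0.71 (95% interval -0.08 to 1.497, edgeR adjusted p = 0.366) and became 0.28 without KO replicate 3. Called genes at 1 week were 8 of 12754, 0.0627%, and 0 of the members were among them, while 1 member, Stag2, had an unadjusted p under 0.05, as 15.5% of all genes did. At 1 month Stag1 had 20.3, 22.7 and 35.3 CPM in WT and 24.2, 30.04 and 22.2 CPM in KO, and the groups overlapped. The log2 fold change of -0.00 (95% interval -0.58 to 0.57, adjusted p = 0.995) joined a difference of 0.32 within batch 2 and of -0.66 in batch 3, and its sign was positive under DESeq2 size factors, library size alone (0.22), no filter (0.04) and a mean of at least 20 counts. In the fit of all 12 libraries Stag1 was at 0.35 (95% interval -0.18 to 0.87, adjusted p = 0.667). The intervals allow a rise of Stag1, no change and a fall.

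Stag3, the meiotic paralog, was counted in all 12 libraries at between 6 and 29 counts. It had 1.46, 1.98 and 1.66 CPM in WT and 0.81, 2.32 and 3.07 CPM in KO at 1 week, and 1.57, 2.52 and 3.21 CPM in WT and 3.58, 1.76 and 1.52 CPM in KO at 1 month. The groups overlapped at both times, and in the fit of all 12 libraries the log2 fold change was 0.07 (95% interval -0.82 to 0.97, edgeR adjusted p = 0.975). Its counting error is wide at this depth.

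The make-up of the Stag transcripts was read within each library, as the share of each gene in the sum of Stag1, Stag2 and Stag3 counts, which does not depend on the scaling of libraries. In the WT libraries of 1 week Stag2 made up 65.3%, 60.5% and 69.9% of Stag counts, and in the KO libraries 49.8%, 40.3% and 30.3%. The widest 95% Wilson interval at that time, which covers counting error only, was 46.9% to 52.7% in KO replicate 1. Stag2 was thus the most counted Stag gene in all WT libraries, while in KO replicates 2 and 3 Stag1 was, at 58.1% and 68.4%, and in KO replicate 1 both were nearly level at 49.8% and 49.6%. Expressed as a ratio, Stag1 stood to Stag2 as 0.519, 0.633 and 0.421 in the WT libraries, against 0.996, 1.44 and 2.26 in the KO libraries.

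At 1 month Stag2 made up 73.1% and 71.1% of Stag counts in the WT libraries of batch 2 and 54.6% in that of batch 3. The KO shares were 57.8% and 53.4% in batch 2 and 44.9% in batch 3, so KO was lower within each batch, with a difference of -16.5 points in batch 2 and of -9.72 points in batch 3. The widest Wilson interval at 1 month was 39.2% to 50.7%, in the KO library of batch 3. Across batches the genotypes overlapped, since the WT library of batch 3 lay below KO replicate 1. Stag1 took 25%, 26.0% and 41.6% of the counts in WT and 36.8%, 44.0% and 51.6% in KO, and Stag3 between 1.94% and 5.44%.

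The group means of the Stag2 share were 65.2% ± 4.66 (SD, n = 3) in WT and 40.2% ± 9.77 in KO at 1 week, and 66.2% ± 10.1 and 52.0% ± 6.56 at 1 month. The difference of -25.1 points at 1 week had an exact permutation p of 0.1, and that of -14.2 points at 1 month, with labels exchanged within batches, an exact permutation p of 0.167. Both are the smallest p these groups allow. Over all 12 libraries, with labels exchanged within the 3 batches in 240 arrangements, the difference was -19.7 points (two-sided exact permutation p = 0.00833, the smallest possible, 0.025 after adjustment over the 3 tests of the share). It stayed between -21.6 and -16.9 points in all alternatives run, including those that left out 1 library. Stag2 is both the targeted gene and part of the share, so a lower Stag2 lowers the share even with Stag1 unchanged. The tests of the share therefore cannot tell whether Stag1 changed.

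**Figure D2:**
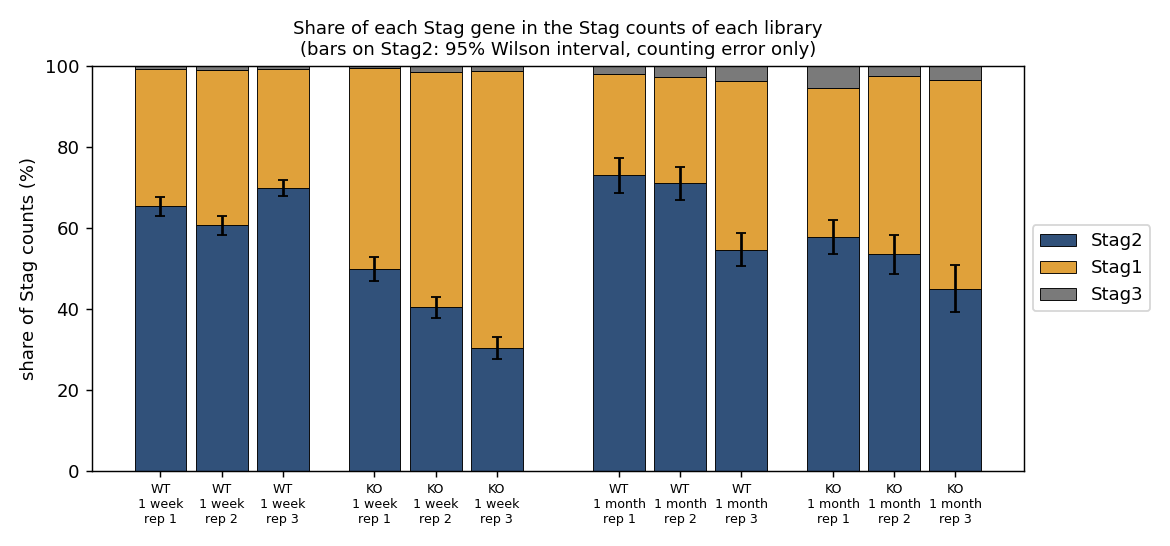
Stacked bars give the share of Stag2, Stag1 and Stag3 in the Stag counts (y axis, percent) of each library (x axis), with the 95% Wilson interval of the Stag2 share. At 1 week the Stag2 part spans 60.5% to 69.9% (WT) and 30.3% to 49.8% (KO), and KO lies below WT within each batch at 1 month.

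The sum of Stag1, Stag2 and Stag3 sets the lower Stag2 beside its paralogs. At 1 week the sum was 184, 179 and 221 CPM in WT and 153, 151 and 229 CPM in KO. KO replicate 3 was the highest of the 6 libraries and the other KO libraries were the lowest, so the groups overlapped, and the KO level was 0.900-fold that of WT. At 1 month the sum was 81.1, 87.1 and 84.9 CPM in WT and 65.7, 68.2 and 43.1 CPM in KO, without overlap, and the KO level was 0.685-fold that of WT. Its log2 difference was -0.33 in batch 2 and -0.98 in batch 3. Stag2 is part of the sum, so a lower Stag2 lowers it even with the paralogs unchanged. Of single genes, 7.58% were lower in KO without overlap at 1 month. No test was made of these sums.

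Relative to the ring, Stag2 was taken as its counts over the geometric mean of Smc1a, Smc3 and Rad21 counts in the same library. This proportion was 56.0%, 63.0% and 68.3% in WT and 28.9%, 24.4% and 24.1% in KO at 1 week. At 1 month it was 32.7%, 29.1% and 45.4% in WT and 27.9%, 21.9% and 19.6% in KO. The groups did not overlap at either time, with wide separation at 1 week and little at 1 month, where KO replicate 1 lay just under WT replicate 2. The KO proportion was 0.413-fold that of WT at 1 week and 0.651-fold at 1 month, and the log2 difference at 1 month was -0.32 in batch 2 and -1.22 in batch 3. By mean CPM, Stag2 itself was at 0.540-fold and 0.560-fold of WT. Each of Smc1a, Smc3 and Rad21 was at 1.18-fold or more at 1 week and at 0.858-fold or less at 1 month. EdgeR called none of these ring differences. The proportion thus depends on the ring counts too, and its values do not show that Stag2 itself differed between times. A lower Stag2 alone also lowers the proportion, and no test was made of it. The log2 proportion of Stag1 to the ring overlapped between genotypes at both times. It spanned -1.80 to -1.33 (WT) and -1.80 to -0.88 (KO) at 1 week, and -3.23 to -1.53 (WT) and -2.49 to -2.15 (KO) at 1 month.

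**Figure D3:**
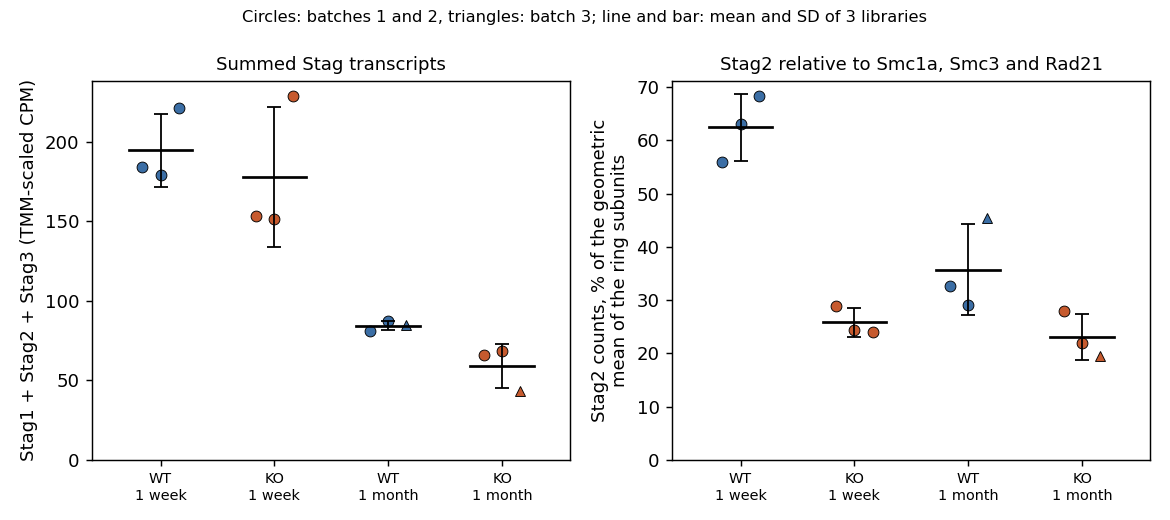
The left panel gives the summed TMM-scaled CPM of Stag1, Stag2 and Stag3, and the right panel Stag2 counts as a percent of the geometric mean of Smc1a, Smc3 and Rad21 counts, for each library of the 4 groups, with means and SD of 3 libraries and triangles for batch 3. The summed level overlaps at 1 week and separates at 1 month, and the Stag2 proportion is lower in all KO libraries than in the WT libraries of the same time.

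Smc1a, the X-linked SMC subunit, was the most abundant of the 7 transcripts in every library. It had 338, 266 and 331 CPM in WT and 419, 428 and 555 CPM in KO at 1 week. KO was higher without overlap, as for 14.1% of the genes tested at that time. The log2 fold change was 0.59 (95% interval -0.05 to 1.23, edgeR adjusted p = 0.363). At 1 month it had 353, 405 and 224 CPM in WT and 275, 320 and 249 CPM in KO, and the groups overlapped. The log2 fold change was -0.19 (95% interval -0.64 to 0.27, edgeR adjusted p = 0.639). It turned to 0.04 under library size alone, where the median of all genes was 0.22. On the log2 scale the batches went opposite ways, with -0.35 in batch 2 and 0.15 in batch 3. Called genes at 1 month were 269 of 12139, 2.22%, and 0 of the members were among them, while Stag2 alone had an unadjusted p under 0.05, as 21.5% of genes did. The difference between both effects was -0.76 (95% interval -1.504 to -0.01), with an unadjusted p of 0.0471 and an edgeR adjusted p of 0.244. In that test 0 of 13122 genes, 0%, passed, 2611, or 19.9%, had an unadjusted p under 0.05, and DESeq2 called 917. In simulated counts the edgeR test recovered 0 of 200 genes changed 4-fold, so its lack of calls does not show equal effects.

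Smc3, its partner in the ring, had 176, 144 and 199 CPM in WT and 185, 162 and 264 CPM in KO at 1 week, and the groups overlapped. At 1 month it had 92.7, 127 and 41.3 CPM in WT and 75.6, 90.9 and 35.3 CPM in KO. The batch 3 library was the lowest of its genotype by more than the genotypes differed, and the differences within batches were -0.38 and -0.22 on the log2 scale. The log2 fold change was 0.24 (95% interval -0.46 to 0.94, edgeR adjusted p = 0.715) at 1 week and -0.34 (-0.79 to 0.11, adjusted p = 0.364) at 1 month. Without KO replicate 3 the value at 1 week was -0.04.

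Rad21, the mitotic kleisin that closes the ring, had 167, 132 and 175 CPM in WT and 236, 227 and 162 CPM in KO at 1 week. KO replicate 3, the library with the highest Stag1, Smc1a and Smc3, had the lowest Rad21 of the KO libraries. At 1 month Rad21 had 182, 188 and 115 CPM in WT and 121, 159 and 110.0 CPM in KO. The groups overlapped at both times, and the log2 fold change was 0.40 (95% interval -0.26 to 1.05, edgeR adjusted p = 0.518) at 1 week and -0.29 (-0.73 to 0.15, adjusted p = 0.433) at 1 month.

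In the fit of all 12 libraries the ring subunits were at 0.19 (95% interval -0.26 to 0.63) for Smc1a, -0.07 (-0.50 to 0.37) for Smc3 and 0.04 (-0.39 to 0.47) for Rad21, with edgeR adjusted p of at least 0.819. Smc3 turned to 0.02 under library size alone, and Smc3 and Rad21 changed sign in some fits without 1 library. The lowest bound of the 3 intervals was that of Smc3 and the highest that of Smc1a. The medians over the 6 members tested were 0.33 at 1 week and -0.24 at 1 month, beside 0.02 and -0.01 over all genes tested.

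**Figure D4:**
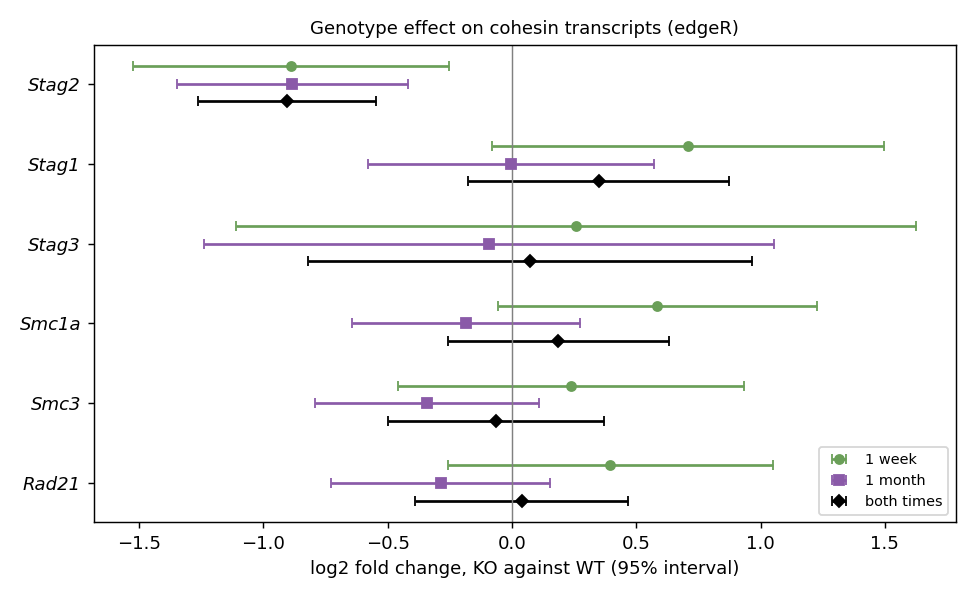
Log2 fold change of KO against WT (x axis) with its 95% interval for 6 members (y axis), from the edgeR fits of 1 week (circles), 1 month (squares) and all 12 libraries with batch (diamonds). The intervals of Stag2 end below 0 in all 3 fits and those of the other 5 genes span 0.

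The ring subunits were also read against each other within libraries. Smc3 counts were 52.0%, 54.2% and 60.0% of Smc1a counts in WT at 1 week, against 44.2%, 37.8% and 47.6% in KO, without overlap, and the KO proportion was 0.778-fold that of WT. At 1 month they were 26.2%, 31.2% and 18.4% in WT against 27.5%, 28.4% and 14.2% in KO, and overlapped. Rad21 counts were 49.6%, 49.8% and 52.9% of Smc1a counts in WT at 1 week and 56.2%, 52.9% and 29.2% in KO, and from 44.2% to 51.4% in all libraries of 1 month. KO replicate 3 of 1 week was the 1 library outside the range of 44.2% to 56.2% for Rad21. No test was made of these proportions, and how often other pairs of genes separate in this way was not computed. Of single genes, 14.1% were higher and 12.5% lower in KO without overlap at 1 week.

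Rec8, the meiotic kleisin, was at the edge of detection. It had 3 or fewer counts in 9 of 12 libraries, and 4 counts in 1 WT and in 1 KO library of 1 week. WT replicate 2 of 1 month had 18 counts, or 3.24 CPM, and held all but 1 of the counts of its group. Rec8 did not pass the default filter on low counts, and 3 counts correspond to between 0.311 and 0.613 TMM-scaled CPM in these libraries. With no filter its fitted log2 fold change was 0.98 (SE 1.49, edgeR adjusted p = 0.762) at 1 week and -3.72 (SE 1.53, adjusted p = 0.131) at 1 month, values that depend on the prior count at such low levels. Of the other meiotic partners, Rad21l, a further kleisin, had a count in 1 library and Smc1b, the meiotic SMC1, between 3 and 19 counts in each.

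Other genes of cohesin and of the related SMC complexes were counted for context. Of 14 genes of loading, release, acetylation and cleavage, 13 were in the tables. At 1 week 12 were tested, 7 were higher in KO and 0 were called by edgeR, 4 having an unadjusted p under 0.05 and 4 being called by DESeq2. Over all genes these shares were 15.5% and 7.52% at 1 week, and 21.5% and 6.98% at 1 month. The median log2 fold change of the 12 was 0.27, beside 0.02 over all genes. Esco2, the acetyltransferase of replicating cohesin, had 3.19 (SE 0.64, edgeR adjusted p = 0.110) and Cdca5, or sororin, 3.81 (SE 0.88, adjusted p = 0.133). At 1 month 9 were tested, 4 were higher and 0 were called by edgeR or DESeq2 or had an unadjusted p under 0.05, and Ctcf, which stops loop extrusion at its sites, had -0.41 (SE 0.20, adjusted p = 0.252) and Pds5b, which binds the ring together with Wapl, 0.42 (SE 0.24, adjusted p = 0.333).

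All 14 genes listed for condensin and Smc5/6 entered the test of 1 week, where 11 had higher KO values and 0 were called by edgeR, while 5 had an unadjusted p under 0.05 and DESeq2 called 4, beside 15.5% and 7.52% of all genes. Their median was 0.43. The condensin subunits Ncapg2 and Ncapg had 3.14 (SE 0.52, edgeR adjusted p = 0.0927) and 4.203 (SE 0.83, adjusted p = 0.110). At 1 month 4 of 11 were higher and 0 were called by either tool, with a median of -0.07, and Nsmce2, the 1 gene with an unadjusted p under 0.05, a ligase of the Smc5/6 complex, had 0.70 (SE 0.31, adjusted p = 0.220), and Ndnl2, the older symbol of another of its subunits, 1.28 (SE 0.68, adjusted p = 0.300). Esco2, Cdca5, Ncapg and Ncapg2 are known as genes of dividing cells, whose marker Mki67 was at 1.87 to 2.92 CPM (WT) and 27.3 to 192 CPM (KO) at 1 week, and the part of dividing cells in these values was not tested.

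Stag2 and Smc1a lie on the X chromosome, and its other genes give the setting for their values. The median log2 fold change of 383 X-linked genes was 0.03 at 1 week, beside 0.04 for 11168 autosomal genes, and that of 366 X-linked genes at 1 month was 0.01, beside -0.01. Of the X-linked genes 35, or 9.14%, had a lower log2 fold change than Stag2 at 1 week and 18, or 4.92%, at 1 month, beside 10.02% and 4.49% of all genes. Of 5 genes beside Stag2, 3 passed the filter: Xiap, an inhibitor of caspases, had 0.03 (SE 0.25) at 1 week and -0.34 (SE 0.23) at 1 month, Thoc2 of the mRNA export complex -0.20 (SE 0.27) and -0.29 (SE 0.21), and the glutamate receptor gene Gria3 0.66 (SE 0.37) and 0.07 (SE 0.27), with 0 called by edgeR or DESeq2 and 0 at an unadjusted p under 0.05. Of 4 X-linked genes known to escape X inactivation all 4 were higher in KO at 1 week, with a median of 0.72, and 1 at 1 month, with a median of -0.30, and edgeR called 0 at either time, with 2 and 0 at an unadjusted p under 0.05 and 1 and 0 called by DESeq2. The shares over all genes were 15.5% and 21.5% at that p, and 7.52% and 6.98% by DESeq2. Kdm6a, a histone demethylase, had 1.17 (SE 0.28, edgeR adjusted p = 0.138) and Kdm5c, another, 0.76 (SE 0.28, adjusted p = 0.272) at 1 week. The value of Smc1a at that time, 0.59, lay under the median of the 4 genes. In these X-linked values genotype cannot be told apart from Xist at 1 week or in batch 3, and the labels do not name the sex of the animals.

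The genes whose pattern was most like that of Stag2 over the 12 libraries, after the mean of each time was subtracted from log2 CPM, were Pde3b, Pkn2, Clmn, Rtn4rl1 and Dhx40, with Pearson correlations of 0.968, 0.965, 0.951, 0.941 and 0.940 among 8760 genes. Their log2 fold changes were between -0.87 and -0.54 at 1 week and between -0.72 and -0.44 at 1 month. For Stag1 they were Ruvbl1, Rgs2, Rbm45, Fmo1 and Igfbp4, at between 0.91 and 0.93. The log2 fold changes of these genes were between 0.36 and 3.00 at 1 week and between -0.91 and 0.25 at 1 month. The genotype difference was left in the values correlated. Genes picked for likeness to a member therefore tend to share its direction, which is no separate result. Among the members themselves, the correlations were 0.81 between Smc1a and Smc3, 0.74 between Smc1a and Rad21 and 0.67 between Smc3 and Rad21. They were -0.36 between Stag2 and Stag1, 0.03 between Stag2 and Smc1a, 0.50 between Stag2 and Smc3 and 0.25 between Stag2 and Rad21. These values describe 12 libraries that share batches and genotypes, and carry no test.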

How the data were processed

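The 2 tables deposited by the authors, 1 for each time, hold raw counts per gene symbol for 12 libraries. Per the labels' protocols, the QuantSeq 3′ forward kit keeps the sense strand and calls for HTSeq's stranded counting, and the submitters' processing notes name Bowtie, TopHat, HTSeq, DESeq2 and mm10. The annotation is not given in the sources used here. Groups come from genotype and time in the titles. Replicates were numbered in accession order. Each title has its own number, but no label says that it marks a separate animal, so p-values measure only the spread between these samples, which may be technical. The title and library name of WT replicate 3 at 1 month carry different numbers, and its column was matched by library name.

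Counts were tested in edgeR 4.0.16 under R 4.3.3 by the quasi-likelihood method (TMM, robust, default filter on low counts, Benjamini-Hochberg over all genes, threshold 0.05), separately at 1 week and at 1 month with batch, and over all 12 libraries with batch, as 1 genotype effect or as an interaction. The standard error is the log2 fold change over the square root of F. CPM use TMM factors of each time, and logs for correlations a prior count of 2. Within-batch log2 differences add 0.5 CPM. Replicates differed by more than sampling noise in every pair, with chi-square per degree of freedom from 9.10 to 198.3. In simulated counts with 200 genes changed 4-fold, 32 (12754 genes), 182 (12139), 170 (13122) and 0 (13122) were recovered at 1 week, 1 month, over both times and in the interaction, with 0, 12, 8 and 0 false calls. Named genes are the 7 members, the genes of each pathway or X-linked list called at a time or else up to 2 of smallest p at that time, the markers Xist and Mki67, and the 5 genes most correlated with Stag2 and with Stag1 at a mean of at least 10 CPM. Rad21l, Cd79a, Cdk1 and Bub1 were named after their values were seen. Members and lists were chosen with earlier results of these data known. Alternatives were other scaling and filters, no robust option, DESeq2 (version 1.42.0), other batch terms and leaving out each library.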

Additional observations from a re-analysis of the deposited data

How the results depend on the processing

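With 3 libraries in each group, and batch 3 holding 1 of each genotype, single libraries decide many calls. Rec8 was tested with no filter only. Stag2 was lower in KO in all 13 alternatives at 1 week, all 15 at 1 month and all 18 over both times. No paired analysis was possible because the labels give no replicate numbers and the numbers used follow accession order.

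The log2 fold change of Stag2 at 1 week passed with DESeq2 (-0.89, adjusted p = 0.0355) and in 1 fit of all 12 libraries (-0.91, adjusted p = 0.0493), and ranged from -1.01 to -0.78 when 1 library was left out. At 1 month it passed with no filter (-0.84, adjusted p = 0.0124) and with DESeq2 (-0.88, adjusted p = 0.0145), and ranged from -0.96 to -0.70. Over both times the call was lost with DESeq2 size factors (-0.89, adjusted p = 0.0530), library size alone (-0.81, 0.0821), no filter (-0.90, 0.0772) and a mean of at least 20 counts (-0.88, 0.0559), kept without the robust option (0.0390) and with DESeq2 (2.27e-05), and lost in 11 of 12 fits without 1 library, whose values ranged from -0.95 to -0.84. The cause was not tested.

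Library size alone moved the median of all genes by 0.22 at 1 month, from -0.01 to 0.22, and turned Stag1 to 0.22, Stag3 to 0.10 and Smc1a to 0.040, and turned Smc3 over both times to 0.023 beside a median of 0.12. Stag1 at 1 month also turned to 0.0034 with DESeq2 size factors, 0.044 with no filter, 0.0074 with a mean of at least 20 counts, 0.0041 with DESeq2 and 0.34 in batch 2 alone, where Stag3 was at 0.40. The interaction of Stag2 was at -0.033 with DESeq2 size factors and at -0.029 with DESeq2. Without 1 library the sign also varied for Stag3 (-0.13 to 0.63 at 1 week, -0.55 to 0.39 at 1 month, -0.12 to 0.28 over both times, -0.82 to 0.14 in the interaction), Smc3 (-0.042 to 0.35 at 1 week, -0.20 to 0.029 over both times), Stag1 at 1 month (-0.18 to 0.33), Rad21 over both times (-0.053 to 0.14) and the interaction of Stag2 (-0.13 to 0.20).

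The number of called genes at 1 week was 62 with no filter, 957 with DESeq2, 553 in 1 fit of all libraries and 0 to 320 without 1 library. At 1 month it was 561 with library size alone (456 higher, 105 lower, against 121 and 148), 1276 with no filter, 781 with DESeq2, 0 without the batch covariate and in 1 fit of all libraries, 1474 in batch 2 alone and 45 to 1522 without 1 library. Over both times it was 77 with no filter, 25 with a mean of at least 20 counts, 407 with DESeq2 and 0 to 156 without 1 library, and library size alone gave 20 higher and 26 lower against 11 and 40. In the interaction it was 137 with no filter, 917 with DESeq2 and 0 to 440 without 1 library.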
